A study of Mus musculus with 14 samples.

Results

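The 10 circadian clock genes Arntl, Clock, Per1, Per2, Per3, Cry1, Cry2, Nr1d1, Nr1d2 and Dbp were examined in spleen T cells from mice with chronic myeloid leukemia (CML). They were taken by gene symbol from a table of 24091 genes, and all 10 had enough reads to be among the 12248 genes tested. T cells were sorted from 8 CP CML mice (Mir142+/+BCR-ABL, a model of the chronic phase) and 6 BC CML mice (Mir142-/-BCR-ABL, a model of blast crisis), with 200000 cells and 1 RNA-seq library per mouse. Every mouse carried the SCLtTA/BCR-ABL transgenes on a C57Bl/6j background, in which BCR-ABL is driven in hematopoietic stem and progenitor cells, and the oncogene had been switched on for 3 weeks by taking away tetracycline. The mice were 6 to 10 weeks old and of both sexes. Mir142 was deleted in the germline, so leukemic cells and all other cells lacked it as well as T cells, and no mouse without leukemia is part of this comparison. In the library names all CP CML mice share 1 number and all BC CML mice another, and what the number marks is not given in the sources used here, so its effect and that of genotype cannot be told apart.

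The circadian clock is a transcriptional feedback loop found in most cells. The proteins of Arntl (BMAL1) and Clock pair up and activate genes through E-boxes, among them the Per and Cry genes, whose proteins return to the nucleus and repress the pair. A further loop runs through Nr1d1 and Nr1d2 (REV-ERBα and REV-ERBβ), which repress Arntl against activation by ROR factors, and outputs are passed on by factors such as DBP and TEF, which bind D-boxes. Levels of many of these transcripts change over the day in lymphocytes, and glucocorticoids and light entrain the rhythm. The mice were housed under a light-dark cycle, but the hour at which each spleen was taken is not given in the sources used here. A single sample per mouse gives a level and not a phase, and a difference in the time of sampling between the groups cannot be told apart from a difference in genotype.

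Arntl has been reported as a target of miR-142-3p, so the sequences of the deleted microRNA and its matches in the clock genes are shown first. Both mature arms come from RefSeq on GRCm38.p6 (mm10), on the plus strand of chromosome 11 at chr11:87756903-87756925 for miR-142a-3p and chr11:87756867-87756887 for miR-142a-5p. Capitals mark the seed, bases 2 to 8 from the 5′ end.

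mmu-miR-142a-3p: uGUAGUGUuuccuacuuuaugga

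mmu-miR-142a-5p: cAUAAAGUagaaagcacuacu

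The longest 3′UTR of each clock gene in GENCODE vM21, on the same build, was searched on the transcript strand for 8mer (ACACTACA for the 3p arm and ACTTTATA for the 5p arm), 7mer-m8 (ACACTAC and ACTTTAT) and 7mer-A1 (CACTACA and CTTTATA) matches. The shorter forms were counted only outside an 8mer. Arntl held 2 8mers for the 3p arm in a 3′UTR of 507 bases, at chr7:113313620-113313627, which are the first 8 bases after the coding sequence, and at chr7:113313969-113313976. Clock held 1 such 8mer at chr5:76212141-76212148 in a 3′UTR of 6831 bases, together with a 7mer-A1 for the 3p arm and a 7mer-m8 for the 5p arm. The windows around the 8mers are shown because Arntl and Clock were the clock genes with any match to the 3p arm, with the match in capitals.

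Arntl 3′UTR, first site, chr7:113313620-113313638, plus strand: ACACTACAtttgctttggc

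Arntl 3′UTR, second site, chr7:113313958-113313987, plus strand: atggtgtttttACACTACAaagaagtcccc

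Clock 3′UTR, chr5:76212130-76212159, minus strand: gttgtcataccACACTACAttccttggttt

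Among 11503 tested genes with an annotated 3′UTR, 12.1% held a match to the 3p arm and 3.04% held an 8mer for it. The median 3′UTR of these genes was 1186 bases, against 507 for Arntl, 6831 for Clock, 1889 for Per2 and 2631 for Nr1d2. A longer 3′UTR has more room for a match, and the shares are not adjusted for length. For the 5p arm, Per2 held 1 match and Nr1d2 held 3, against 23.5% of tested genes with at least 1. Per1, Per3, Cry1, Cry2, Nr1d1 and Dbp held no match to either arm in these 3′UTRs. A match is a description of the sequence, and none of these data show binding.

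Mir142 itself was read 302 to 650 times in each CP CML library and 0 times in each of the 6 BC CML libraries, as the labels state. Library totals overlapped, from 15703702 to 19914531 reads for CP CML and from 16145537 to 19399720 for BC CML. Expression is given as CPM, the counts of a gene scaled to a common library size after TMM normalization, and differences as the log2 fold change of BC CML over CP CML ± its standard error (SE), with adjusted p from the quasi-likelihood test of edgeR over all genes tested. Of those genes, 65.2% passed an adjusted p of 0.05, with 32.6% higher and 32.7% lower in BC CML. Against that background all 10 clock genes passed, 8 higher and 2 lower, and their median log2 fold change was 0.50 where that of all genes tested was -0.01. The genes that rose were Arntl, Clock, Per1, Per2, Per3, Nr1d1, Nr1d2 and Dbp, and those that fell were Cry1 and Cry2. Per3 was 3.66-fold higher, and every other member changed by less than 2-fold. In bulk RNA a change in the share of cells that express a gene and a change in its level per cell cannot be told apart.

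**Figure D1:**
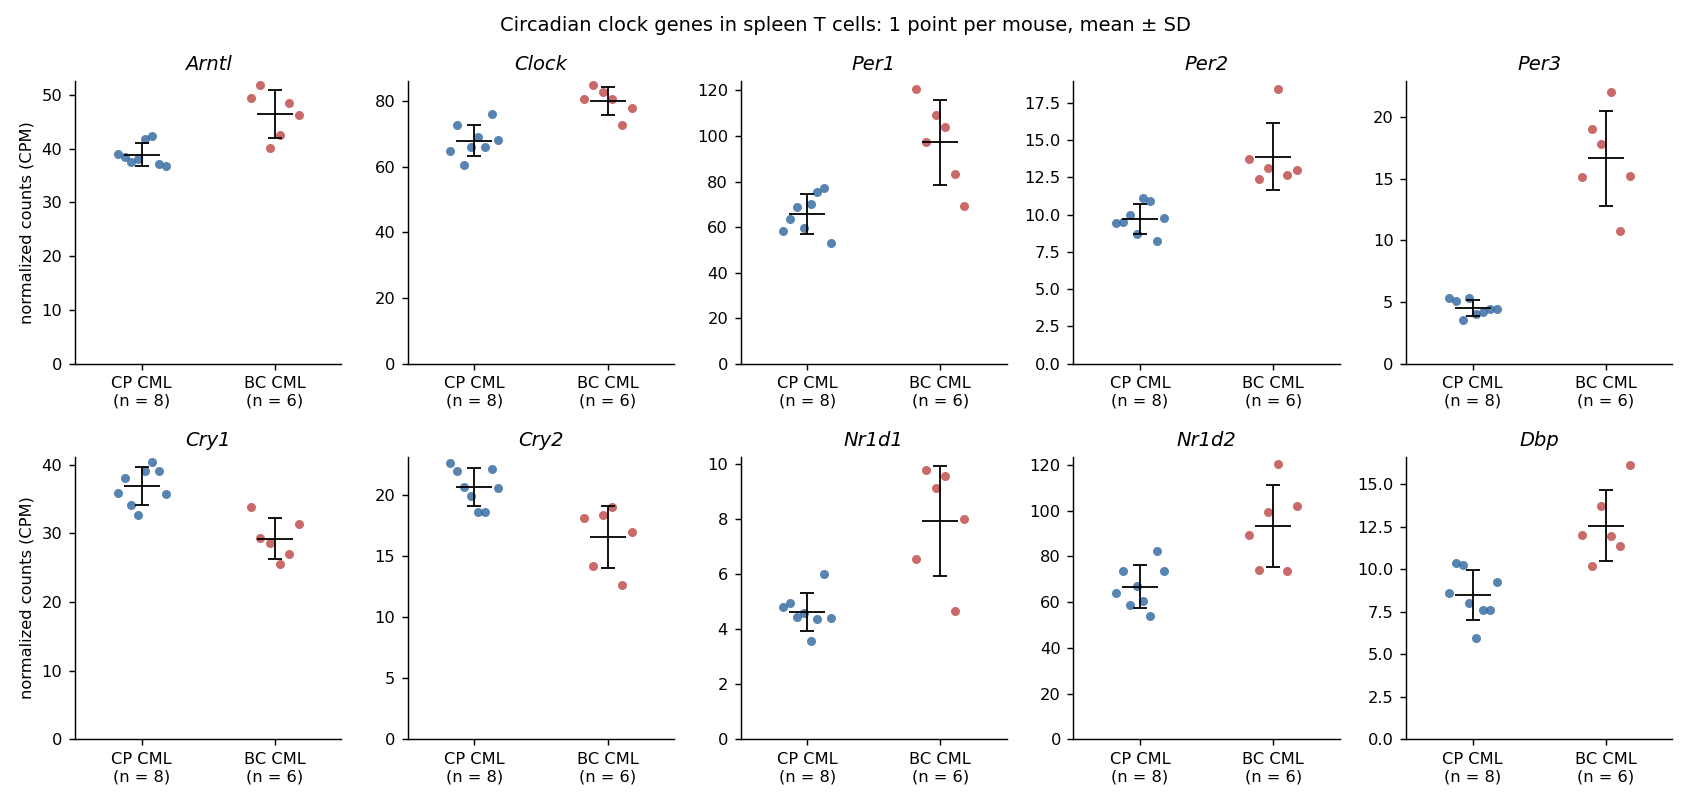
CPM of the 10 clock genes in each mouse, with 1 panel per gene and an axis from 0. Points are mice (8 CP CML in blue, 6 BC CML in red), and black bars are the mean ± SD. Per2 and Per3 are the clock genes whose groups do not overlap, while Cry1 and Cry2 are lower in BC CML.

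Of the activators, Arntl stood at 36.8 CPM in the lowest, 38.3 in the median and 42.3 in the highest CP CML mouse. In BC CML mice the lowest, median and highest levels were 40.1, 47.4 and 51.8 CPM. The groups overlapped through BC CML replicate 3, and the other 5 BC CML mice lay above every CP CML mouse. Arntl was 1.19-fold higher in BC CML (log2 fold change 0.25 ± 0.057 SE, adjusted p = 0.00075). Across all genes tested, 28.5% rose by more than Arntl. Clock, its partner in the E-box-binding dimer, ranged from 60.6 to 76.0 CPM in CP CML (median 67.1) and from 72.5 to 84.8 in BC CML (median 80.6). Here too 5 of 6 BC CML mice exceeded all CP CML mice, with BC CML replicate 5 the exception, and the log2 fold change was 0.23 ± 0.049 (adjusted p = 0.00041). The log2 ratio of Arntl to Clock reads within each library differed between the groups by 0.017 (adjusted p = 0.94, exact permutation test, two-sided, over the 3003 ways to split the mice into 8 and 6, adjusted over 6 ratios).

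The 3 Per genes, the repressors that partner with the CRY proteins, all rose, but not to the same extent. Per3, the Per gene that is least required for rhythms, lay at 3.52, 4.47 and 5.31 CPM in the lowest, median and highest CP CML mouse and at 10.8, 16.5 and 22.0 CPM in BC CML. The lowest BC CML mouse, replicate 5, was well above the highest CP CML mouse, and the groups did not overlap. The log2 fold change was 1.87 ± 0.137 (adjusted p = 1.9e-09), and 3.60% of the genes tested rose by more. The reads behind these levels were few, 63 to 106 per CP CML library and 199 to 421 per BC CML library.

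Per2 ranged from 8.21 to 11.1 CPM in CP CML (median 9.64) and from 12.4 to 18.5 in BC CML (median 13.1). Its groups did not overlap either, with BC CML replicate 4 highest by a wide margin and the other 5 BC CML mice close together, and the log2 fold change was 0.52 ± 0.096 (adjusted p = 0.00014). Among all genes tested, 19.3% were higher in every BC CML mouse than in every CP CML mouse. Per1, an immediate responder to light and hormonal signals, ranged from 52.8 to 77.3 CPM in CP CML (median 66.4) and from 69.1 to 120.7 in BC CML (median 100.5). BC CML replicate 6 alone lay within the CP CML range. The log2 fold change of Per1 was 0.56 ± 0.115 (adjusted p = 0.00053).

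Ratios within a library, which need no normalization, set Per3 apart from the other Per genes. Per1 reads were 11.0 to 19.4 times Per3 reads in CP CML mice and 4.53 to 7.96 times in BC CML mice, a log2 difference of -1.29 with no overlap. Per2 reads were 1.64 to 2.81 times Per3 reads in CP CML and 0.653 to 1.18 times in BC CML, a log2 difference of -1.34, again with no overlap. For both ratios the exact permutation p was 0.000666, the smallest these 14 mice allow (adjusted p = 0.0020 over 6 ratios). The ratio of Per1 to Per2 overlapped between the groups and differed by 0.043 on the log2 scale (exact permutation test, adjusted p = 0.94). Arntl reads were likewise 7.17 to 10.7 times Per3 reads in CP CML and 1.93 to 4.50 times in BC CML, whereas the ranges of Arntl to Dbp and of Arntl to Nr1d1 overlapped.

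**Figure D2:**
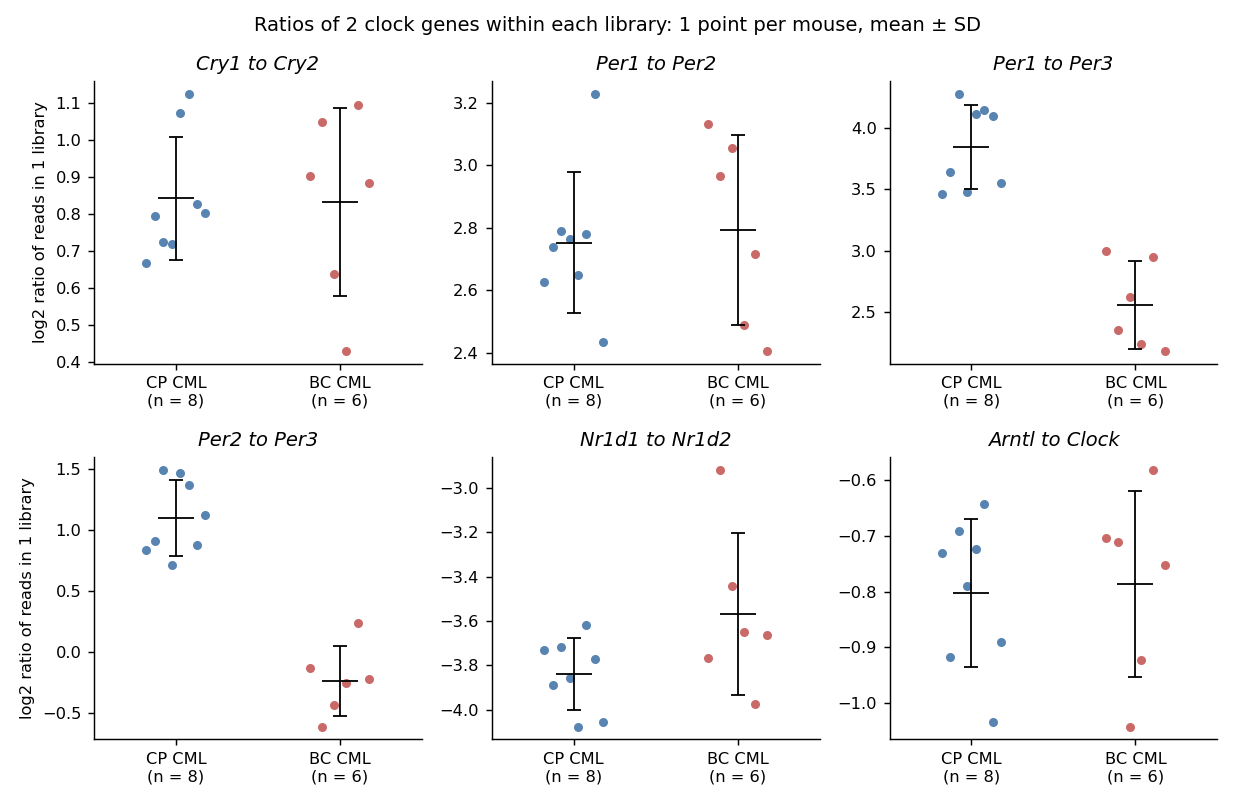
Log2 ratios of the reads of 2 clock genes in the same library (0.5 added to each count), with 1 point per mouse and the mean ± SD in black. The panels of Per1 to Per3 and Per2 to Per3 show separate groups, lower in BC CML, and the other 4 ratios overlap.

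Cry1 and Cry2, the repressors with the strongest hold on the activator pair, went the other way. Cry1 lay at 32.7, 37.0 and 40.4 CPM in the lowest, median and highest CP CML mouse and at 25.6, 28.9 and 33.8 CPM in BC CML, where 5 of 6 mice were below every CP CML mouse. Its log2 fold change was -0.33 ± 0.065 (adjusted p = 0.00022). Cry2 ranged from 18.5 to 22.6 CPM in CP CML (median 20.6) and from 12.6 to 19.0 in BC CML (median 17.5), with BC CML replicate 4 the mouse within the CP CML range. Its log2 fold change was -0.32 ± 0.087 (adjusted p = 0.0040). The log2 ratio of Cry1 to Cry2 differed by -0.0088 between the groups (exact permutation test, adjusted p = 0.94). Neither Cry gene was lower in every BC CML mouse than in every CP CML mouse, as 17.6% of all genes tested were.

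Nr1d1 and Nr1d2, the repressors of Arntl transcription, both rose. Nr1d1 had 56 to 98 reads per CP CML library and 86 to 183 per BC CML library, or 3.57 to 6.01 CPM (median 4.53) against 4.66 to 9.78 CPM (median 8.58). BC CML replicate 5 was inside the CP CML range and the other 5 BC CML mice above it, and the log2 fold change was 0.77 ± 0.152 (adjusted p = 0.00024). Part of the Nr1d1 gene, 1075 bases, lies opposite Thra, the thyroid hormone receptor gene on the other strand, and whether reads were counted by strand is not given in the sources used here. Thra itself did not pass the test, at 18.4 to 24.9 CPM in CP CML and 17.9 to 24.6 in BC CML (log2 fold change 0.02, adjusted p = 0.82).

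Nr1d2 ranged from 54.0 to 82.4 CPM in CP CML (median 65.6) and from 73.6 to 120.2 in BC CML (median 94.3), with 4 of 6 BC CML mice above all CP CML mice. The log2 fold change was 0.48 ± 0.116 (adjusted p = 0.0020). The ratio of Nr1d1 to Nr1d2 within a library was 0.27 higher on the log2 scale in BC CML, with overlap (exact permutation test, adjusted p = 0.16). Without BC CML replicate 5 that difference was 0.35 and passed the threshold (exact permutation test, adjusted p = 0.040), so whether the 2 REV-ERB genes rose unequally rested on that mouse.

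Dbp, a PAR bZIP factor that carries clock output to D-box genes, lay at 5.98, 8.32 and 10.4 CPM in the lowest, median and highest CP CML mouse and at 10.2, 11.98 and 16.1 CPM in BC CML. BC CML replicate 2 was just within the CP CML range and the other 5 BC CML mice were above it, and the log2 fold change was 0.57 ± 0.122 (adjusted p = 0.00054). Dbp shares 741 bases with Sphk2, a sphingosine kinase gene on the opposite strand, which was at 33.8 to 42.3 CPM in CP CML and 33.9 to 40.0 in BC CML and did not pass the test (log2 fold change -0.10, adjusted p = 0.11). No other neighbour with more than 13 reads in any library overlapped a clock gene.

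Taken mouse by mouse, each of the 6 BC CML mice had all 8 of the genes that rose above the CP CML median and both Cry genes below it. The genes were grouped by their direction in these same mice, so this restates the group difference and is not a further test. The CP CML mice, which set the median, had between 3 and 6 of these 8 genes above it. Within BC CML the mice were not ordered alike for every gene. BC CML replicate 5 was lowest for Clock, Per3, Cry2, Nr1d1 and Nr1d2, replicate 4 was highest for Per2, Per3, Cry2 and Nr1d2, and replicate 3 was lowest for Arntl. The coefficient of variation in BC CML was 5.35% for Clock and 9.48% for Arntl, against 23.2% for Per3 and 25.3% for Nr1d1.

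**Figure D3:**
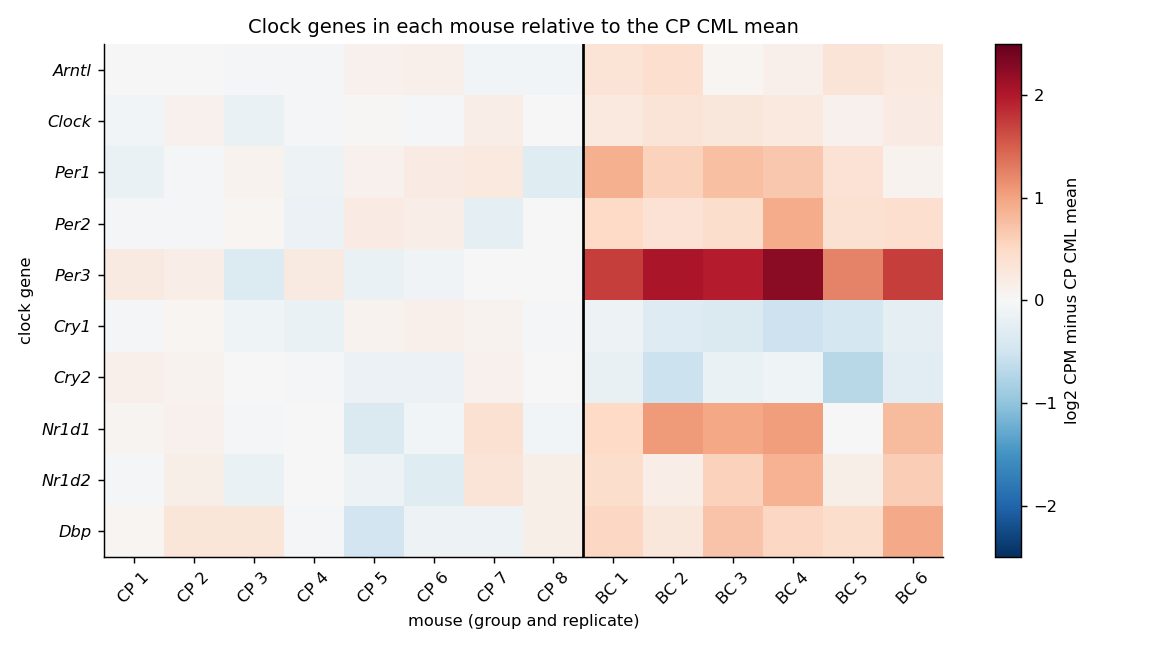
Log2 CPM of each clock gene (rows) in each mouse (columns, CP CML left and BC CML right of the line) minus the CP CML mean of that gene, red for higher and blue for lower. Per3 is the darkest row in all 6 BC CML mice, and Cry1 and Cry2 are blue in each of them.

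Correlations within a group asked whether mice of the same genotype differed together along the clock. For Dbp with Arntl, Pearson's r was -0.62 among the 8 CP CML mice (Spearman's rho -0.33) and -0.52 among the 6 BC CML mice (rho -0.60). Neither passed an exact permutation test, with adjusted p of 0.52 and 0.71 for r and 0.92 for both rho values, and r was -0.45 and -0.79 without the 2 mice farthest from the Dbp median. The other 6 relations (Dbp with Nr1d1, Dbp with Per3 and Nr1d1 with Arntl in each group) also failed, at adjusted p of 0.52 to 0.89 for r, and the number of mice limits what could be detected.

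Levels of different genes were compared per length, as RPKM, which is CPM divided by the gene length in kilobases of the deposited table. In CP CML the order by mean RPKM was Nr1d2 (13.4 ± 1.89 SD, n = 8), Arntl (13.1 ± 0.704), Cry1 (12.3 ± 0.900) and Per1 (11.8 ± 1.55), whose neighbouring ranges overlapped. A gap without overlap separated these from Clock (6.44 ± 0.453), Dbp (5.06 ± 0.885) and Cry2 (3.37 ± 0.253), then another from Nr1d1 (1.68 ± 0.249) and Per2 (1.62 ± 0.166), and Per3 was last at 0.624 ± 0.0880. In BC CML Nr1d2 (18.7 ± 3.61, n = 6), Per1 (17.5 ± 3.34) and Arntl (15.7 ± 1.49) led with overlapping ranges, and Cry1 (9.74 ± 0.987) now stood apart below them. Clock (7.57 ± 0.405) and Dbp (7.49 ± 1.24) followed. Nr1d1 (2.88 ± 0.729), Cry2 (2.71 ± 0.420), Per2 (2.32 ± 0.381) and Per3 (2.29 ± 0.530) came last with overlapping ranges, so the gap between Per3 and the next gene seen in CP CML was not present.

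The genes whose pattern was most like that of Arntl over the 14 mice, among 9161 genes of moderate or high level, were Zfpm1 (Pearson's r = 0.95), H2-D1, Lcp2, Phc2 and Baiap2 (r = 0.94 for each of these 4). All 14 points come from the same 2 groups, and the values describe these libraries only. After subtracting the group means, the genes most like Dbp were Trappc12 and Add1 (r = 0.89 each), Acad10 (0.89), Gclm (0.85) and Kcnh2 (0.84). For Arntl and for Dbp these are the highest values among 9161 genes, and how high such values run by chance was not tested.

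The promoters of Per3, Per1 and Cry1 are shown because they belong to the member with the greatest rise, a paralog that rose less and a repressor that fell, and because each holds a classical clock element. Windows from 250 bases before to 50 bases after the RefSeq start site on GRCm38.p6 were searched on both strands for the E-box CACGTG, the E′-box CACGTT, D-boxes (TTATGTAA or TTATGCAA or TTACGTAA), ROR elements (TAGGTCA or TGGGTCA), the cAMP response element TGACGTCA and the palindromic glucocorticoid response element. No 2 of the matches in these windows overlapped. Motifs are in capitals and each promoter is printed on the strand of its gene. For Per3 the window is chr4:151044616-151044915 on the minus strand, with D-boxes whose first bases are at -205 and -158 from the start site. For Per1 it is chr11:69098699-69098998 on the plus strand, with an E-box at -166 and a D-box at -24. For Cry1 it is chr10:85185005-85185304 on the minus strand, with an E′-box at -79 and an E-box at -60.

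Per3: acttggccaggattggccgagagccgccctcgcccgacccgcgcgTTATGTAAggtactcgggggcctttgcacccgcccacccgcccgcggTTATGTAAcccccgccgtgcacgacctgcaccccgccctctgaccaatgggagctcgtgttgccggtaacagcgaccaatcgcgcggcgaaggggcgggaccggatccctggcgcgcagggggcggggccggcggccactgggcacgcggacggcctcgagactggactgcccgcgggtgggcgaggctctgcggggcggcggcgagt

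Per1: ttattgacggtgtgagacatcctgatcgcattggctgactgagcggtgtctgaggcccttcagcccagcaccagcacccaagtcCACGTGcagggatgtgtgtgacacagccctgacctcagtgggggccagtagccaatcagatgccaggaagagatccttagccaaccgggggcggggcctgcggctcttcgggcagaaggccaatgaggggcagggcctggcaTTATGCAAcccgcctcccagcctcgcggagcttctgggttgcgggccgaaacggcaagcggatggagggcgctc

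Cry1: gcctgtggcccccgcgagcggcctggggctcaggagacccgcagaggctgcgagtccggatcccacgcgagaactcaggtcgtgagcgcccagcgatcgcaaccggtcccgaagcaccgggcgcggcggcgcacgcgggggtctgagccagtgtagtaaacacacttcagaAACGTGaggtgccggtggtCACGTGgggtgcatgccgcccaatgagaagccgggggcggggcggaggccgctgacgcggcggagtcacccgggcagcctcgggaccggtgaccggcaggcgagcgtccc

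Of 32851 promoter windows of this length, 1.78% held a D-box, 7.15% an E-box, 4.68% an E′-box and 6.45% a ROR element. The window at the other start of Per1, chr11:69099902-69100201, held none of these motifs, and the promoter of Per2 was not searched. Among the other members, Cry2 and Nr1d1 each held an E′-box and Arntl a ROR element 31 bases after the later of its 2 starts, while Clock, Nr1d2 and Dbp held none of these letters. No member's window held the cAMP response element (1.79% of all windows) or the glucocorticoid response element (0.475%). Enhancers outside these windows were not searched, and the letters alone do not show that a factor is bound.

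The rest of the pathway was followed in 3 lists. Of 35 genes, 33 had enough reads, and 13 rose, 7 fell and 13 did not pass the test. The share that passed, 60.6%, was near the 65.2% of all genes tested. Their median log2 fold change was 0.10, closer to the -0.01 of all genes than the 0.50 of the clock genes was.

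The list of other clock transcription factors had 11 genes, of which 9 were tested, 4 rose, 2 fell and 3 did not pass, so that 66.7% passed against 65.2% of all genes tested. Tef, the PAR bZIP relative of Dbp, rose from 33.1, 36.0 and 48.8 CPM (lowest, median and highest CP CML mouse) to 68.9, 87.3 and 99.8 CPM in BC CML. The groups did not overlap, and the log2 fold change was 1.17 ± 0.096 (adjusted p = 2.3e-08). Bhlhe40 (DEC1), which competes for E-boxes as a repressor, rose from 20.7, 25.2 and 29.0 CPM to 55.9, 93.6 and 112.6 CPM, again without overlap (log2 fold change 1.83 ± 0.130, adjusted p = 8.6e-09). Ciart, a repressor of the activator pair that is strongly clock-driven, rose with 1 overlapping BC CML mouse (log2 fold change 1.23 ± 0.191, adjusted p = 2.4e-05). Nfil3, which opposes DBP at D-boxes, rose by 0.45 ± 0.157 on the log2 scale (adjusted p = 0.018), and this call was lost without BC CML replicate 2 or without replicate 5 (adjusted p = 0.065 and 0.052). Hlf, the third PAR bZIP factor, did not pass at 0.71 ± 0.329 (adjusted p = 0.070) but passed without CP CML replicate 7 or BC CML replicate 4 (adjusted p = 0.033 and 0.014).

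Among the factors of the other limbs, Rora, an activator of Arntl, stood at 84.2 ± 3.63 CPM (SD, n = 8) in CP CML and 82.6 ± 3.87 (n = 6) in BC CML and did not pass (log2 fold change -0.03, adjusted p = 0.54). Npas2, a stand-in for Clock, fell by 0.92 ± 0.267 at 6 to 34 reads per library (adjusted p = 0.0059). It averaged 0.96 CPM in CP CML and 0.51 in BC CML. It had enough reads to be tested mainly through CP CML, which favours a fall. Timeless, whose mammalian product works mainly at replication forks, fell from a median of 53.5 to 30.5 CPM without overlap (log2 fold change -0.81 ± 0.099, adjusted p = 2.3e-06). Bhlhe41 did not pass (-0.41 ± 0.430, adjusted p = 0.42), and its value was -0.04 without CP CML replicate 1 and -0.72 without BC CML replicate 6 (adjusted p = 0.93 and 0.17), while Arntl2 and Rorb had too few reads to test.

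**Figure D4:**
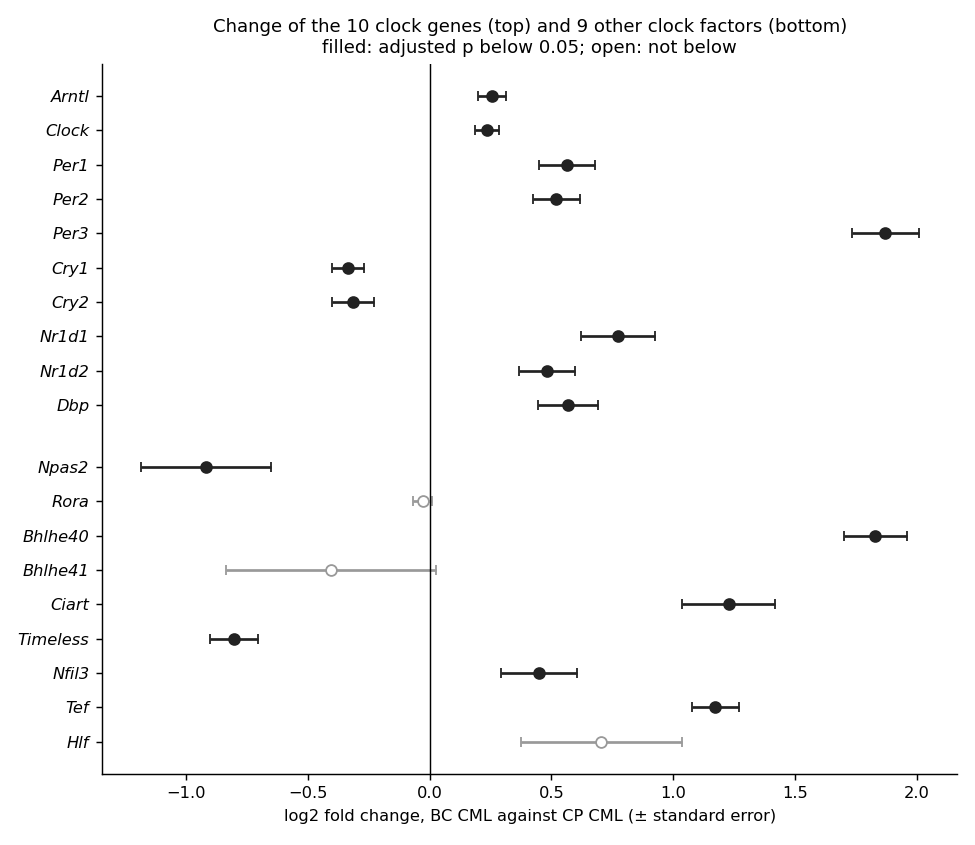
Log2 fold change ± SE of BC CML over CP CML for the 10 clock genes (top) and the 9 tested genes of the list of other clock factors (bottom). Filled points have an adjusted p below 0.05 and open points do not. Per3, Bhlhe40, Ciart and Tef are above 1, and Cry1, Cry2, Npas2 and Timeless are the filled points below 0.

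Of 13 kinases, phosphatases, ubiquitin ligases and deubiquitinases that set the stability of PER and CRY proteins, 4 rose, 3 fell and 6 did not pass, a share passed of 53.8% against 65.2% of all genes tested. Fbxw11, a β-TrCP ligase subunit that recognises phosphorylated PER, rose from 76.0 ± 3.99 to 98.1 ± 3.12 CPM (SD, n = 8 and 6) without overlap (log2 fold change 0.37, adjusted p = 2.0e-07). Ppp5c rose by 0.21, Gsk3b by 0.12 and Csnk1d by 0.10 on the log2 scale (adjusted p = 0.00059, 0.022 and 0.013), and the call for Gsk3b was lost without BC CML replicate 1 or 2 (adjusted p = 0.054 and 0.059). Csnk1a1 fell by 0.15, Prkaa1, the AMPK subunit that marks CRY1 for decay, by 0.23, and Usp2 by 0.43 (adjusted p = 0.00081, 0.00086 and 0.010). The transcripts of Fbxl21, Btrc, Csnk1e, Csnk2a1, Usp9x and Ppp1ca did not pass the test, but Btrc passed when CP CML replicate 1 or 4 or BC CML replicate 5 or 6 was left out (lowest adjusted p = 0.033) and Ppp1ca without CP CML replicate 5 or BC CML replicate 4 (adjusted p = 0.019 for each). Transcript levels say nothing of the activity of these enzymes.

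Of 11 genes known as clock outputs, 5 rose, 2 fell and 4 did not pass, and the 63.6% that passed was near the 65.2% of all genes tested. Klf9, a Krüppel-like repressor under clock and glucocorticoid control, rose from 5.86, 8.21 and 17.2 CPM (lowest, median and highest CP CML mouse) to 24.4, 35.9 and 47.1 CPM (log2 fold change 1.95 ± 0.227, adjusted p = 3.3e-06). Nampt, the rate-limiting enzyme of NAD salvage, rose from 50.6, 54.7 and 56.2 CPM to 74.8, 82.2 and 101.5 CPM (log2 fold change 0.62 ± 0.057, adjusted p = 3.8e-08). Neither gene overlapped between the groups. Lonrf3 and Cdkn1a, an inhibitor of the cell cycle, rose by 1.72 and 1.53 on the log2 scale from below 1 CPM on average, and Klf10 by 0.55. Sirt1, the NAD-dependent deacetylase, fell by 0.11 and Ppargc1b by 0.34 (adjusted p = 0.019 and 0.0017), while Wee1, Noct, Tspo and Por did not pass, with Por passing without CP CML replicate 2 (adjusted p = 0.031).

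Signals that reset the clock were read through 2 further lists. Of 10 glucocorticoid-response genes, 6 rose, 3 fell (Sgk1, Zbtb16 and Il7r) and Tsc22d3 did not pass, where 32.6% of all genes tested rose and 32.7% fell. The log2 fold changes ran from -2.28 for Zbtb16 to 4.03 for Tgm2, with Il7r at -1.004 and Sgk1 at -0.47. Single genes of this list were named after their values were seen. Fkbp5, a classical target, rose by 0.70 ± 0.211 on the log2 scale (adjusted p = 0.010), Tsc22d3 (GILZ), another, was at -0.30 ± 0.197 (adjusted p = 0.20), and Nr3c1, the receptor, rose by 0.60 ± 0.049 (adjusted p = 8.5e-09). Of 12 immediate early genes, 3 rose (Jun, Dusp1 and Atf3), 4 fell (Junb, Jund, Egr2 and Ier2) and 5 did not pass, or 58.3% passed against 65.2% of all genes tested, with a median log2 fold change of -0.01. Atf3 averaged 0.28 CPM in CP CML and 2.11 in BC CML. It had enough reads to be tested mainly through BC CML, so it could be counted only as higher.

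Marker genes of T cell states and of other cell types were read against the 65.2% of all genes tested that passed, 32.6% higher and 32.7% lower. Of the 7 T cell identity genes measured, 3 rose and 1 fell (57.1% passed). Their summed level was 2517 to 2949 CPM in CP CML and 2882 to 3191 in BC CML. T cell transcripts were thus abundant in every library, but these sums do not measure the purity of the sort. The 7 naive T cell genes all fell (4890 to 6238 CPM summed in CP CML, 2683 to 3852 in BC CML), and 9 of 11 effector and memory genes rose and 1 fell (90.9% passed, 785 to 967 against 1634 to 2239 CPM). Neutrophil and monocyte genes summed to 69.1 to 630 CPM in CP CML and 747 to 1928 CPM in BC CML, with 11 of 12 higher (91.7%), and among them Elane, Ly6g and Cebpe were at 0 reads in at least 1 library. NK cell genes summed to 127 to 164 against 410 to 551 CPM with all 5 higher, and Klra8 was at 0 in at least 1 library. B cell genes overlapped in their sum, at 33.3 to 125 against 63.5 to 362 CPM, with 5 of 6 higher (83.3%), as did erythroid genes at 15.4 to 63.0 against 42.7 to 72.7 CPM, with 2 of 5 higher, a share near the 32.6% of all genes. Il7r and Eomes each stand in 2 of the lists used here. Klra8, Ly6g and the erythroid gene Car1 averaged 0.15, 0.26 and 0.29 CPM in CP CML against 15.8, 1.96 and 1.13 in BC CML. They had enough reads to be tested mainly through BC CML, so they could be counted only as higher. The part of these marker differences in the levels of the clock genes was not tested.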

How the data were processed

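The authors trimmed adapters (Trimmomatic) and polyA tails (FASTP), aligned the paired reads of 101 bases to mm10 with STAR 2.6.0 and counted them per gene with HTSeq 0.11.1. The deposited values were raw read counts of 24091 genes with each gene's length, and the annotation and strand setting are not given in the sources used here. Counts were analysed in R 4.3.3 with edgeR 4.0.16 and limma 3.58.1. Genes were kept by filterByExpr (12248), normalized by TMM and tested with glmQLFit (robust) and glmQLFTest, BC CML against CP CML, without covariates, with Benjamini-Hochberg adjustment at 0.05. RPKM used the deposited lengths. Log2 CPM for correlations had a prior count of 2. Ratios (0.5 added to each count) were tested by exact two-sided permutation. The code was tested on simulated counts in which 200 of 11949 genes changed, a far smaller share than was called in the mice. There the main test made 8 false calls, edgeR's likelihood ratio test 21 and DESeq2 26. Library totals ran from 15703702 to 19914531 reads, and p-values of the group comparison weigh the difference between groups against the spread between mice within them. The chi-square per degree of freedom between replicates was 2.99 to 21.6, where sampling noise alone gives about 1, so no 2 libraries agreed within that noise and each was kept as 1 mouse. DESeq2 1.42.0, edgeR's likelihood ratio test, other scalings and filters, a replicate block and leaving out each mouse were tried as alternatives. The members and lists were chosen with earlier results of these data known. Named were the 10 members, Mir142, the genes of 3 clock pathway lists (2 further genes, not reported here, were left out of the lists and their counts), overlapping genes and the 5 genes most like Arntl and Dbp, and of the other lists only genes on which a list turns.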

Additional observations from a re-analysis of the deposited data

Results flagged for a closer look

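Single mice that stood apart from their group were sought with Dixon's criterion among 100 groups of values, which were the levels of the clock and clock pathway genes, the ratios of clock genes and the library totals, and 6 were found where chance gives about 5 by the 1 in 20 rate of the criterion. Among the clock genes, Per2 was 18.5 CPM in BC CML replicate 4 against 13.8 in the next mouse, and the log2 ratio of Per1 to Per2 was 3.23 in CP CML replicate 7 against 2.79 in the next. Among the pathway genes, Nampt was 101.5 CPM in BC CML replicate 5 against 83.6 in the next. In CP CML, Ciart was 6.64 CPM in replicate 3 against 4.11 in the next mouse, and Klf9 was 17.2 CPM in replicate 7 against 10.3. The library total of BC CML replicate 2 was 16145537 reads, below the 18319039 of the next BC CML library.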

How the results depend on the processing

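All 10 clock genes kept their direction and their call under the 7 alternatives and when each of the 14 mice was left out, and Per3 then ranged from 1.77 to 1.97 on the log2 scale. The count of genes called ranged from 7280 to 8719 over the alternatives and from 7721 to 7966 without single mice. The number in the mouse labels did not pair the mice (correlation of deviations -0.32 to 0.39 over 6 pairs), and a fit with it as a replicate block called 7280 genes over 12 mice. In this fit, which also leaves out CP CML replicates 7 and 8, Csnk1d, Gsk3b, Usp2 and Sirt1 lost their calls, and Hlf and Btrc gained one, and the block and the smaller number of mice were not told apart. Npas2 was removed by a filter of 1 CPM in 6 mice, which left 1 of the other clock factors lower. Ppp1ca passed with DESeq2, RLE factors and that filter. Without single mice the log2 difference ranged from -0.061 to 0.072 for Cry1 to Cry2, from -0.025 to 0.12 for Per1 to Per2, from -0.024 to 0.068 for Arntl to Clock and from 0.14 to 0.35 for Nr1d1 to Nr1d2. Signs also changed for Noct (-0.0060 to 0.15), Csnk2a1 (-0.038 to 0.0050) and Tspo (-0.12 to 0.018), none of which was called, and the cause was not tested. Ranked by CPM without length, Clock came first in CP CML and Per1 in BC CML. The lowest read counts among the genes tested here, such as the 6 to 34 per library of Npas2, limit the precision of those genes.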
